A study of Mus musculus with 12 samples.

Results

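Enriched housing was compared with standard housing in mouse hippocampus over all 12 of the 12 libraries of the series, with neonatal ethanol as the second factor. The members are the 6 libraries from enriched mice and the 6 from standard-cage mice, and the genes described are those that differed in the same direction with and without ethanol. All mice were C57BL/6, and hippocampi were taken at postnatal day 70. Ethanol mice received 2.5 g/kg ethanol under the skin on postnatal days 6 and 7, as 2 injections a day 2 hours apart, and saline mice received the 0.15 M saline vehicle. The tag in the labels calls this exposure prenatal, although the injections were given after birth. From day 21, standard-cage mice were the housing controls, and enriched mice lived with littermates of their own sex, 2 to 6 to a large cage with running wheels, climbing objects and toys. Each of the 4 groups (standard saline, enriched saline, standard ethanol, enriched ethanol) holds 3 libraries. The labels give no sex, litter or cage for a library and no hour of death, and do not say that the libraries of a group came from separate litters, so the p-values below measure only the spread between these libraries.

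Environmental enrichment gives rodents more space, company, objects and exercise than a plain cage, and in the hippocampus it is known for effects on adult neurogenesis, synapses and growth factors. The saline pair of groups and the ethanol pair share no library, so the effect in saline mice and the effect in ethanol mice are separate measurements of the same change of housing. The pairs are called the saline arm and the ethanol arm below. Levels are the deposited TPM values, a measure of transcript abundance scaled for transcript length and library size. Differences are log2 fold changes of enriched over standard, computed on log2(TPM + 0.5), with their standard error (SE) from limma, and adjusted p-values are limma's with Benjamini-Hochberg adjustment over 14947 genes with a mean of at least 1 TPM.

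The libraries resembled each other closely, with Spearman correlations from 0.947 to 0.951 over genes, and none was a copy of another. Hippocampal markers were present in every library. Slc17a7, the vesicular glutamate transporter of excitatory neurons, lay between 475 and 619 TPM, and Prox1, which marks dentate granule cells, between 18.7 and 41.9 TPM. In marker or stress lists 4 libraries stood apart. Enriched saline replicate 2 had Ttr, the abundant transthyretin transcript of choroid plexus, at 7503 TPM, where the remaining 11 ranged from 20.8 to 385. The lowest summed myelin level (4164 TPM) and the highest summed level of 18 dentate granule markers (837 TPM) were both in standard saline replicate 2. Enriched ethanol replicates 1 and 2 had high heat shock and inflammatory genes, described below.

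Few genes passed the adjusted threshold. Averaged over ethanol, 3 genes passed (0.0201% of those tested), against 4 in the saline arm (0.0268%), 1 in the ethanol arm (0.00669%) and 2 for the difference between arms (0.0134%). At an unadjusted p under 0.05, 619 genes were higher (4.14%) and 571 lower (3.82%) for the averaged effect. Counts at an unadjusted p describe groups of genes here and call none of them. Within the arms, 1498 genes had an unadjusted p under 0.05 in saline mice (5.43% of genes higher and 4.60% lower) and 833 in ethanol mice (2.91% higher and 2.66% lower). The 2 arms had the same sign for 7572 genes, 50.7% of those tested, with 24.9% of genes higher in both and 25.8% lower in both. Across genes, which are not independent replicates, Pearson's r between the arms was 0.056 and Spearman's rho was 0.019.

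Each of the 3 genes that passed for the averaged effect met the minimum mean of 1 TPM only through the groups where it was high, so a difference was built into its being tested and its values are given as a description. The one with the same sign in both arms was Gm12854, a processed pseudogene on chromosome 4. It was listed at 0 in all 6 standard-cage libraries, at 1.58, 1.73 and 4.16 TPM in enriched saline and at 1.34, 1.79 and 1.41 TPM in enriched ethanol. Its mean over the 12 libraries was just above that minimum, and its averaged log2 difference was 2.24 ± 0.24 (SE). Without any 1 of the 6 enriched libraries the mean fell under the minimum, so Gm12854 was no longer tested and its call was lost. A value of 0 can be a failed estimate where reads are divided between a pseudogene and its near-identical parent, so this level is uncertain. The other 2 genes that passed differed in 1 arm only and are described in the closing section. Among protein-coding genes alone, limma called 0 for enrichment averaged over ethanol, and 1130 had an unadjusted p under 0.05.

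A gene was counted as differing the same way when its sign agreed and its unadjusted limma p was under 0.05 in each arm. That held for 64 genes, 36 higher in enriched mice (0.241% of genes) and 28 lower (0.187%), while 52 genes passed in each arm with opposite signs (0.348%). Of the 64, 57 were protein-coding, 6 were pseudogenes and 48 had a mean of at least 10 TPM. In 35 genes all 6 enriched libraries lay above all 6 standard libraries (0.234%), and in 21 they all lay below (0.140%). The opposite-sign set included Adcyap1, the precursor of the neuropeptide PACAP, with a log2 difference of 0.44 ± 0.12 in saline and -0.44 ± 0.12 in ethanol mice. Map7, a microtubule-binding protein, had -0.37 ± 0.07 in saline and 0.29 ± 0.07 in ethanol mice (adjusted p of the difference between arms = 0.0700).

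**Figure D1:**
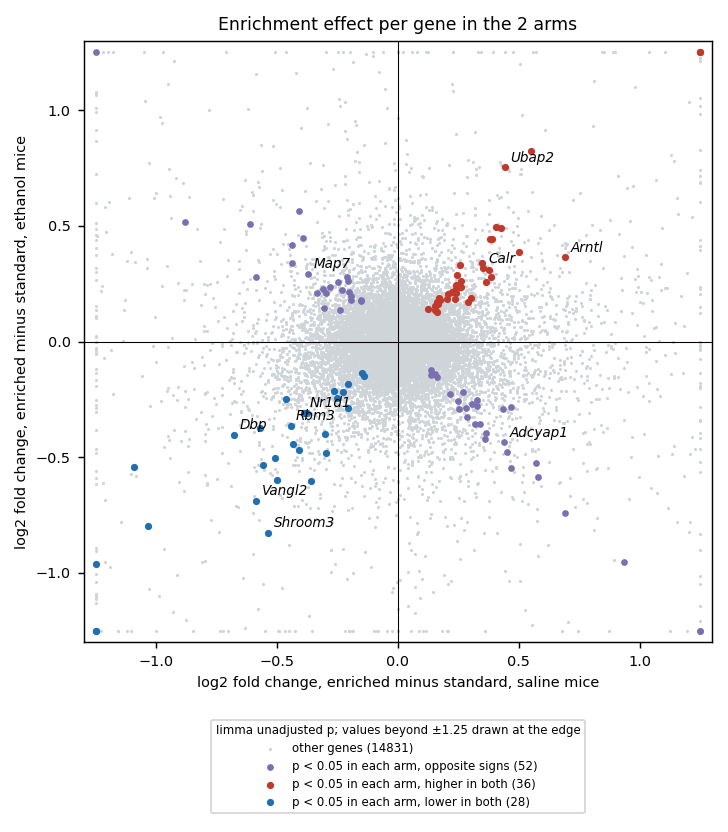
Log2 fold change of enriched over standard housing for each gene in saline mice (x axis) and in ethanol mice (y axis), with genes that passed an unadjusted p of 0.05 in each arm coloured by direction. The 36 red and 28 blue genes have the same sign in both arms, the 52 violet genes have opposite signs, and Pearson's r over all genes is 0.056.

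Genes of the circadian clock (Dbp, Arntl, Ciart and Nr1d1) were among those with the smallest p. In this feedback loop, BMAL1 (encoded by Arntl) and CLOCK switch on genes of the Per, Cry and Nr1d families, whose proteins shut the loop down again, and output factors such as DBP and TEF carry the rhythm to other genes. The hippocampus has its own clock, set by the suprachiasmatic nucleus and by feeding and activity. Of 25 clock genes tested, 7 were lower in enriched mice (Dbp, Ciart, Nr1d1, Nr1d2, Per2, Per3 and Tef) and 2 higher (Arntl and Csnk1e) at an unadjusted p under 0.05 (3.82% and 4.14% of all genes), and none passed the adjusted threshold. These counts came mainly from the saline arm, where 10 were lower and 2 higher (4.60% and 5.43% of all genes), while in the ethanol arm 2 were lower and 3 higher (2.66% and 2.91%). The median log2 difference of the list was -0.10, against 0.00 over all genes, with -0.22 in the saline arm and 0.01 in the ethanol arm. Leaving out any 1 library left 6 to 9 members lower and 1 to 4 higher.

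Dbp, the output factor on chromosome 7 (45705088 to 45710203, GRCm38), had the smallest p among genes lower in enriched mice other than the genes that passed. Its level was 82.5, 68.0 and 81.2 TPM in standard saline and 47.1, 43.5 and 53.8 TPM in enriched saline. In ethanol mice it was 70.0, 74.5 and 69.7 TPM in standard cages and 52.5, 62.2 and 47.9 TPM after enrichment. All 6 enriched libraries lay below all 6 standard libraries. The averaged log2 difference was -0.54 ± 0.08 (SE, adjusted p = 0.0588), with -0.68 ± 0.11 in the saline and -0.40 ± 0.11 in the ethanol arm. Across 24 alternative settings, limma's adjusted p for Dbp fell under 0.05 in 4 and was at most 0.233. The 4 were array weights (0.0330), without standard saline replicate 2 (0.0239), without enriched ethanol replicate 2 (0.0286), and without both replicate 2 libraries of the saline arm (0.0473). The last was chosen after seeing the data.

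Arntl is known to peak in the opposite phase to Dbp, and it was higher after enrichment. Standard-cage levels were 20.5, 22.7 and 19.0 TPM in saline and 19.6, 20.9 and 21.1 TPM in ethanol mice. Enriched levels were 39.7, 31.1 and 31.0 TPM in saline and 24.7, 24.9 and 30.6 TPM in ethanol mice. No enriched library overlapped a standard one. The averaged log2 difference was 0.53 ± 0.08 (adjusted p = 0.0760), with 0.69 ± 0.12 in saline and 0.36 ± 0.12 in ethanol mice. The difference between arms had an unadjusted p of 0.0709 for Arntl and 0.101 for Dbp.

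Nr1d1 encodes the repressor REV-ERBα, which acts on Arntl. It lay at 32.6, 30.05 and 41.9 TPM in standard saline against 27.4, 23.0 and 28.7 TPM in enriched saline, and at 41.7, 38.5 and 34.9 TPM in standard ethanol against 31.5, 29.7 and 31.2 TPM in enriched ethanol. Within each arm the groups did not overlap. The log2 difference was -0.39 ± 0.12 in saline and -0.31 ± 0.12 in ethanol mice (averaged -0.35 ± 0.09, adjusted p = 0.411).

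Other clock genes had unlike values in the 2 arms. Ciart, a repressor of the CLOCK and BMAL1 pair, was at 18.7, 17.7 and 17.9 TPM in standard saline and 10.3, 8.73 and 11.7 TPM in enriched saline. In ethanol mice it was at 12.3, 14.9 and 13.1 TPM and then 11.3, 14.95 and 8.70 TPM, so these groups overlapped. For Per3, a member of the Period family, the log2 difference was -0.64 ± 0.16 in saline and -0.01 ± 0.16 in ethanol mice. The same contrast was -0.44 ± 0.16 and 0.10 ± 0.16 for Bhlhe41, a repressor of the loop. The unadjusted p of the difference between arms was 0.0324 for Ciart, 0.0187 for Per3 and 0.0294 for Bhlhe41, none of which passes after adjustment. Per2, Per3, Tef, Nr1d2 and Ciart each had enriched ethanol replicate 3 as the lowest ethanol library. Per2 was at 5.64 TPM in that library against 8.82 and 10.6 TPM in the other enriched ethanol libraries.

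**Figure D2:**
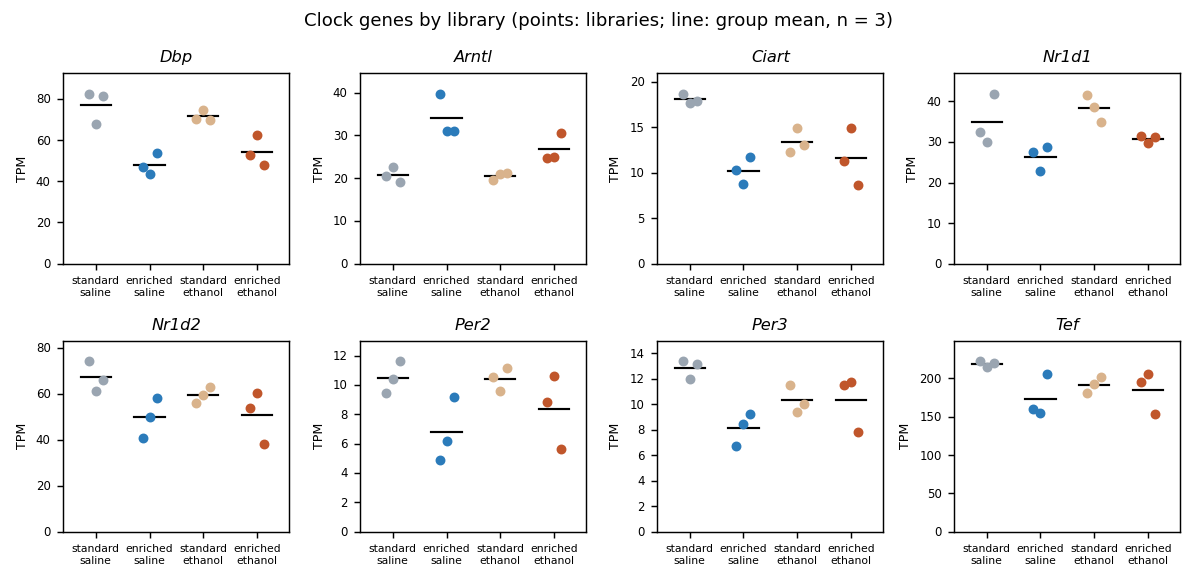
Deposited TPM of 8 clock genes in each library (points) with the mean of each group of 3 (lines), for standard and enriched housing in saline and ethanol mice. Dbp and Arntl separate all 6 enriched from all 6 standard libraries, while the groups of Per3 and Tef are apart in saline mice and overlap in ethanol mice.

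Promoters of clock genes were searched for the sites through which the loop is known to act, in RefSeq windows of 250 bases before to 50 after the start (GRCm38.p6), on both strands. The E-box, CACGTG, is the site of CLOCK and BMAL1, the D-box (searched as TTATGTAA or TTACGTAA) is the site of DBP and TEF, and the RORE (searched as TAGGTCA or TGGGTCA) is the site of NR1D1 and the ROR receptors. Of 20 clock genes with a window, 5 held an E-box (Bhlhe41, Ciart, Cry1, Per1 and Tef), against 8.09% of all 27025 genes with a window (7.15% of the 32851 windows). A D-box was found in 1 (Per3), against 1.23% of genes, and a RORE in 2 (Arntl and Nfil3), against 7.35% of genes. The windows of Dbp, Nr1d1 and Nr1d2 held none of these letters. The stretches of Ciart, Per3 and Arntl are shown because they carry each kind of site in genes described above, with the searched letters in capitals. Ciart has 3 E-boxes (chr3:95882237-95882374, minus strand), Per3 has 2 D-boxes (chr4:151044786-151044900, minus strand), and the RORE of Arntl lies just after its start (chr7:113207530-113207558, plus strand).
Ciart: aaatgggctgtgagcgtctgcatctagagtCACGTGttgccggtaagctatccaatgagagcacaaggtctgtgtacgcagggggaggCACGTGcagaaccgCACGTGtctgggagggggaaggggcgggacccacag
Per3: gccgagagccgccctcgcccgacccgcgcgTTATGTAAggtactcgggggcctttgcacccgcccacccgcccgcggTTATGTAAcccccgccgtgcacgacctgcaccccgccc
Arntl: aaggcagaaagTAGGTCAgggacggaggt

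Rbm3, a cold-inducible RNA-binding protein on the X chromosome, was lower after enrichment in each arm. It was at 240.1, 258 and 237 TPM in standard saline and 169.5, 172 and 199.6 TPM in enriched saline. In ethanol mice the levels were 180.2, 179 and 202 TPM in standard cages and 144, 163 and 129.6 TPM in enriched cages. The groups did not overlap within either arm, although standard ethanol overlapped enriched saline. The log2 difference was -0.44 ± 0.09 in saline and -0.36 ± 0.09 in ethanol mice, and averaged it was -0.40 ± 0.06 (adjusted p = 0.0766). Without enriched ethanol replicate 2 the adjusted p of Rbm3 was 0.0426. That was the only 1 of 24 alternative settings under 0.05 for Rbm3, and the highest adjusted p was 0.290. Its relative Cirbp had a log2 difference of -0.06 ± 0.07, and of the 5 cold-inducible genes tested only Rbm3 had an unadjusted p under 0.05 (7.96% of all genes).

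Chaperones of the endoplasmic reticulum were on the higher side after enrichment in both arms. These proteins fold and retain secretory and membrane proteins, and their genes are induced together by the unfolded protein response. Of 23 tested, 8 were higher in enriched mice at an unadjusted p under 0.05 and 0 were lower (4.14% and 3.82% of all genes), and 15 were higher in both arms (24.9% of all genes). The median log2 difference was 0.11 averaged, 0.10 in saline and 0.13 in ethanol mice, where all genes together had 0.00. In the saline arm 7 of the 23 were higher at an unadjusted p under 0.05 (5.43% of all genes), in the ethanol arm 5 (2.91%). No member passed the adjusted threshold, and leaving out any 1 library left between 7 and 11 higher and 0 lower.

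Sel1l, a part of the machinery that clears misfolded proteins from the reticulum, separated all libraries by housing. Standard levels were 86.8, 94.9 and 94.1 TPM in saline and 92.8, 93.7 and 86.4 TPM in ethanol mice. Enriched levels were 109, 107 and 102 TPM in saline and 103, 103 and 104 TPM in ethanol mice, all above the highest standard library. The log2 difference was 0.20 ± 0.06 in saline and 0.18 ± 0.06 in ethanol mice (averaged 0.19 ± 0.04, adjusted p = 0.251). Its promoter window held none of the motifs searched.

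Calr encodes calreticulin, a calcium-binding chaperone of glycoproteins. It was at 351, 346 and 280.2 TPM in standard saline and 386, 469 and 388 TPM in enriched saline, then at 300.0, 357 and 389.5 TPM in standard ethanol and 449, 439.9 and 409 TPM in enriched ethanol. The groups of each arm did not overlap. The averaged log2 difference was 0.33 ± 0.08 (adjusted p = 0.374), and the arms gave 0.35 ± 0.11 and 0.32 ± 0.11. Pdia6, a protein disulfide isomerase, had 0.25 ± 0.10 in saline and 0.29 ± 0.10 in ethanol mice, and Hsp90b1, the reticulum's HSP90, had 0.31 ± 0.10 and 0.20 ± 0.10. Canx, the membrane-bound partner of calreticulin, had a log2 difference of 0.14 ± 0.05 in saline and 0.10 ± 0.05 in ethanol mice.

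Hspa5, the central chaperone BiP, had wider spread after enrichment. It was at 212, 219.5 and 219 TPM in standard saline but at 195, 313 and 237 TPM in enriched saline. Standard ethanol libraries were at 193, 208 and 219 TPM and enriched ones at 301, 329 and 224 TPM. The high libraries were enriched saline replicate 2 and enriched ethanol replicates 1 and 2, which are also those that stood apart in choroid plexus or stress genes; their part in the result was not tested. Herpud1, Atf6, Dnajb9 and Creld2, further genes of the unfolded protein response, had averaged log2 differences between -0.06 and -0.02.

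**Figure D3:**
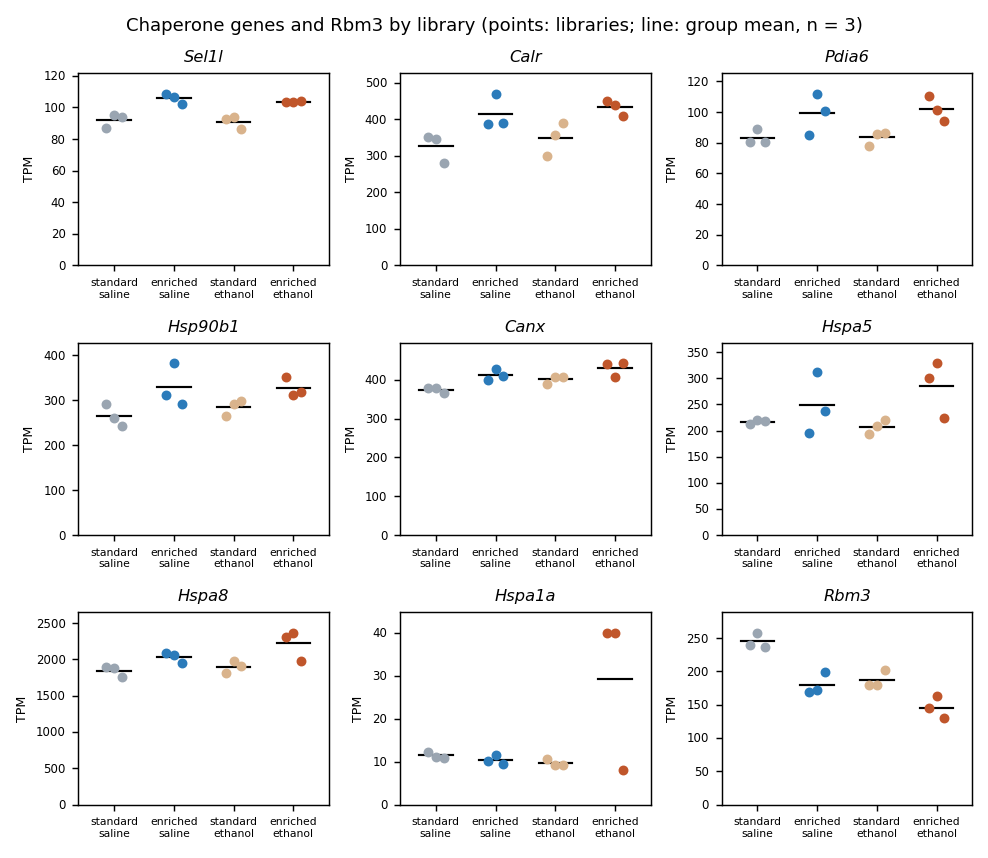
Deposited TPM of 8 chaperone genes and Rbm3 in each library (points) with the mean of each group of 3 (lines). Sel1l and Calr are higher in enriched mice of both arms, Rbm3 is lower in both, and Hspa1a is high in enriched ethanol replicates 1 and 2 (39.9 and 40.0 TPM) but not in replicate 3 (7.96 TPM).

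The ER stress element (ERSE), to which factors of the unfolded protein response bind, was searched in the same windows as CCAAT, any 9 bases and CCACG, on either strand. It was found in 8 of 21 chaperone genes with a window, against 0.137% of all genes with one. The genes were Calr, Canx, Creld2, Dnajc3, Hsp90b1, Hspa5, Pdia6 and Syvn1, of which 5 were among the 8 higher after enrichment. Creld2, Dnajc3 and Syvn1 carry the same letters but had averaged log2 differences of -0.05 ± 0.09, 0.08 ± 0.08 and -0.08 ± 0.13. The stretches of the 5 higher genes follow, with the element in capitals, reading in the direction of the gene; where it starts with CGTGG it is on the other strand. They lie at chr8:84847045-84847123 (Calr, minus strand), chr12:17266461-17266539 (Pdia6, plus), chr2:34771995-34772073 (Hspa5, plus), chr10:86705503-86705686 (Hsp90b1, minus, 2 elements) and chr11:50325770-50325848 (Canx, minus).
Calr: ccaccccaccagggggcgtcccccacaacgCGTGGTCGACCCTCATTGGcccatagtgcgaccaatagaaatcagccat
Pdia6: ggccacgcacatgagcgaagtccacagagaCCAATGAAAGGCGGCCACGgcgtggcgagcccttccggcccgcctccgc
Hspa5: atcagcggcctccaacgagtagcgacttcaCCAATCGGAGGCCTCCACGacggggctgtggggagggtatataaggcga
Hsp90b1: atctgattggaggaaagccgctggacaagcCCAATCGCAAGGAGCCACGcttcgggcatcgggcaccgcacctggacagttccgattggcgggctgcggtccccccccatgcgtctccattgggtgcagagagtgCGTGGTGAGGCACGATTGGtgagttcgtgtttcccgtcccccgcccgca
Canx: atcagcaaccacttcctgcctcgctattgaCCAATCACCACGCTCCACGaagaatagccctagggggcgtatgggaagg

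Cytosolic heat shock chaperones, which fold proteins outside the reticulum, were also on the higher side but unevenly. Of 22 tested, 9 were higher at an unadjusted p under 0.05 and 0 lower (4.14% and 3.82% of all genes). Within the arms, 10 were higher in ethanol mice (2.91% of all genes) and 1 in saline mice (5.43%). The list's median log2 difference was 0.05 in saline and 0.23 in ethanol mice. The number higher was 14 without enriched ethanol replicate 3, and 7 without enriched saline replicate 2 or standard ethanol replicate 1. Hspa8, the constitutive HSC70, was at 1892, 1877 and 1756 TPM in standard saline and 2080.4, 2058 and 1951 TPM in enriched saline. In ethanol mice Hspa8 was at 1806, 1972 and 1906 TPM and then 2314, 2364 and 1977 TPM, again without overlap within the arm (averaged 0.18 ± 0.05). The inducible Hspa1a was between 7.96 and 12.3 TPM in 10 libraries and at 39.9 and 40.0 TPM in enriched ethanol replicates 1 and 2. In the same pair of libraries Icam1, an adhesion molecule of inflamed vessels, was at 15.5 and 13.6 TPM against 2.33 to 3.43 elsewhere, and the summed level of 14 inflammatory genes was 226 and 209 TPM against 109 to 132. Their part in the ethanol arm's chaperone values was not tested.

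Akap5 anchors protein kinase A and calcineurin at the postsynaptic density. It was at 49.3, 53.5 and 51.2 TPM in standard saline and 64.0, 59.9 and 66.7 TPM in enriched saline, and at 50.7, 54.8 and 57.5 TPM and then 64.2, 57.8 and 63.8 TPM in ethanol mice. The 12 libraries separated by housing, with an averaged log2 difference of 0.25 ± 0.05 (adjusted p = 0.251). Jund, a subunit of the AP-1 transcription factor, had 0.22 ± 0.06 in each arm and separated fully too. Bcar3, an adaptor of integrin signalling, had 0.50 ± 0.13 in saline and 0.39 ± 0.13 in ethanol mice. Receptor and channel subunits in the same-way set included Gabrb2, of the GABA-A receptor (0.13 ± 0.04 averaged), Chrm3, a muscarinic acetylcholine receptor (0.18 ± 0.05), and Scn2b, of the sodium channel (0.18 ± 0.05). None of these passed the adjusted threshold. At an unadjusted p under 0.05, 2 of 12 GABA-A receptor genes were higher and 0 lower (4.14% and 3.82% of all genes). Of 28 monoamine and acetylcholine receptor genes, 3 were higher and 0 lower, and of 37 voltage-gated channel genes, 4 and 1.

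Among the other genes higher in both arms, Snrpa, a protein of the U1 splicing particle, had 0.26 ± 0.10 in saline and 0.33 ± 0.10 in ethanol mice, Leo1, of the PAF1 transcription complex, had 0.26 ± 0.08 and 0.24 ± 0.08, and Nolc1, a nucleolar chaperone, had 0.16 ± 0.06 in each arm. Mgea5, the enzyme that removes O-GlcNAc from proteins, had 0.15 ± 0.05 and 0.14 ± 0.05, and Man1a, a mannosidase of the Golgi, had 0.24 ± 0.09 and 0.25 ± 0.09. Creld1 was at 38.7, 39.4 and 36.9 TPM in standard saline and 45.6, 44.6 and 45.7 TPM in enriched saline. In ethanol mice Creld1 was at 36.8, 41.0 and 43.4 TPM and then 44.6, 44.9 and 48.0 TPM, above every standard library. Adjusted p-values of these genes lay between 0.374 and 0.415. In Ubap2, a ubiquitin-associated protein, the log2 difference was 0.44 ± 0.17 in saline and 0.75 ± 0.17 in ethanol mice, with enriched saline replicate 3 (16.6 TPM) inside the standard saline range.

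Among the genes lower in both arms, Vangl2, a core planar cell polarity protein, was at 7.09, 8.70 and 9.64 TPM in standard saline and 5.65, 5.81 and 4.89 TPM in enriched saline, then at 9.98, 6.49 and 9.42 TPM and 5.74, 4.31 and 5.30 TPM in ethanol mice. No enriched library reached a standard one, and the averaged log2 difference was -0.64 ± 0.13 (adjusted p = 0.246). Shroom3, an actin-binding protein of apical constriction, had -0.54 ± 0.20 in saline and -0.83 ± 0.20 in ethanol mice, at levels between 1.31 and 3.56 TPM. Speer4b had an averaged log2 difference of -0.91 ± 0.16 at 2.65 to 8.91 TPM, and it belongs to a multigene family whose copies share sequence, so its level is uncertain. Calb2, the calcium-binding protein calretinin of interneurons and mossy cells, had -0.50 ± 0.22 in saline and -0.60 ± 0.22 in ethanol mice. The 22 interneuron genes tested had a median averaged log2 difference of -0.05. At an unadjusted p under 0.05, 2 of them were higher and 3 lower (4.14% and 3.82% of all genes). Gab1, a docking protein of receptor kinases, had -0.46 ± 0.11 and -0.25 ± 0.11. Among the others, Xrcc3, a DNA repair protein, had -0.56 ± 0.20 and -0.53 ± 0.20, Lama2, a laminin subunit, had -0.30 ± 0.13 and -0.40 ± 0.13, and Me1, the cytosolic malic enzyme, had -0.25 ± 0.10 and -0.24 ± 0.10. Id4, an inhibitor of bHLH factors, was at 49.2 to 53.9 TPM in standard saline and 46.5 to 47.3 in enriched saline, and at 47.8 to 50.7 TPM in standard ethanol and 44.2 to 47.2 in enriched ethanol, so all 6 enriched libraries lay below all 6 standard ones.

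Several genes with small averaged p-values had a larger log2 difference in 1 arm than in the other. Rspo2, an amplifier of Wnt signalling, had a log2 difference of 0.66 ± 0.10 in saline and 0.06 ± 0.10 in ethanol mice, and Cyb561, a cytochrome of secretory vesicles, had 0.55 ± 0.09 and 0.10 ± 0.09. Plagl1, an imprinted zinc finger gene, leaned to the ethanol arm with -0.21 ± 0.14 and -0.73 ± 0.14. The unadjusted p of the difference between arms was 0.0011 for Rspo2, 0.0032 for Cyb561 and 0.020 for Plagl1, and none passes after adjustment (adjusted p between 0.509 and 0.614).

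**Figure D4:**
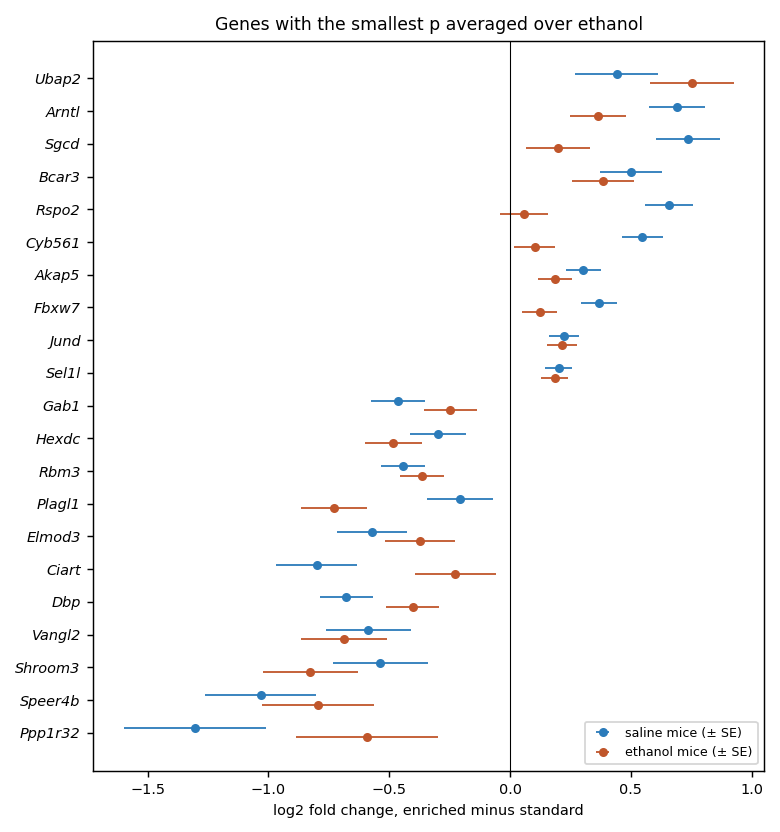
Log2 fold change of enriched over standard housing in saline and in ethanol mice (points, with SE as bars) for 21 of the 24 genes with the smallest averaged p. Sel1l, Jund and Rbm3 have nearly equal values in the 2 arms, whereas Rspo2 and Cyb561 lie near 0 in ethanol mice.

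Markers of myelin and mature oligodendrocytes were on the lower side. All 24 had a negative averaged log2 difference, as did 7478 of all 14947 genes, 20 were lower in both arms (25.8%), and 10 were lower at an unadjusted p under 0.05 (3.82%). Within the arms, 7 were lower at that level in saline mice (4.60% of all genes) and 0 in ethanol mice (2.66%). The median was -0.23 averaged, -0.23 in saline and -0.22 in ethanol mice. Mbp, the myelin basic protein, was at 2513, 1466 and 2062 TPM in standard saline and 1631, 1399 and 1494 TPM in enriched saline. In ethanol mice Mbp was at 2336, 2133 and 2166 TPM and then 1689.5, 1773 and 2361 TPM. Groups overlapped in each arm, through the low standard saline replicate 2 and the high enriched ethanol replicate 3. The summed level of the list ran from 4164 to 6960 TPM in standard saline, 4190.4 to 5093 in enriched saline, 6586 to 6956 in standard ethanol and 4913 to 7074.5 in enriched ethanol. The number lower was 18 without standard saline replicate 2 and 15 without enriched ethanol replicate 3. It was 3 without standard saline replicate 1 or 3, enriched saline replicate 2, standard ethanol replicate 1 or enriched ethanol replicate 2, and 4 or 5 without enriched ethanol replicate 1 or standard ethanol replicate 2. In whole tissue, fewer cells of a type and less RNA per cell cannot be told apart.

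Several other marker lists had medians of opposite sign or unequal size in the 2 arms. Mature dentate granule markers had a median of -0.32 in saline and 0.12 in ethanol mice, and standard saline replicate 2 held their highest summed level. Meningeal fibroblast markers had 0.81 and 0.03, with summed levels of 144 to 251 TPM in standard saline and 239.9 to 458 in enriched saline. The lowest of these levels was in standard saline replicate 2 and the highest in enriched saline replicate 2. Their averaged median of 0.35 was 0.20 without the former library and 0.23 without the latter. Choroid plexus and ependymal markers had 0.68 and -0.38, with enriched saline replicate 2 at 9331 TPM summed and all other libraries at 223 to 808. Microglia and astrocyte markers had averaged medians of -0.03 and -0.08. Neuropeptide genes were on the higher side, with 7 of 20 higher and 0 lower at an unadjusted p under 0.05 (4.14% and 3.82% of all genes). The number higher was 4 without enriched saline replicate 2 or without enriched ethanol replicate 3. Within the arms 5 were higher and 0 lower in saline mice (5.43% and 4.60% of all genes), and 3 were higher and 1 lower in ethanol mice (2.91% and 2.66%). The median of the neuropeptide genes was 0.20 in saline and 0.03 in ethanol mice. Markers of striatum, a region outside the hippocampus, were also on the higher side. Of 13 tested, 12 had a positive averaged difference, as did 7469 of all 14947 genes. At an unadjusted p under 0.05, 3 were higher (Penk, Drd1 and Syndig1l) and 0 lower (4.14% and 3.82% of all genes). The median of the striatal markers was 0.28 in saline and 0.08 in ethanol mice. Their summed level was 215 to 228 TPM in standard saline and 246 to 272 in enriched saline, then 209.8 to 219 in standard ethanol and 226 to 235 in enriched ethanol, with no overlap in either arm and no marker at 0. The mean log2 deviation of the striatal markers from each gene's mean did overlap in ethanol mice. It was -0.18 to 0.076 in standard and -0.0028 to 0.12 in enriched cages. Only 1 of the 13 striatal markers was higher without standard saline replicate 2, enriched saline replicate 2 or 3, standard ethanol replicate 1, or enriched ethanol replicate 1 or 2. In the full fit, 4.14% of all genes were higher. The lists share Penk and Tac1, and the part of striatal RNA in the neuropeptide values was not tested. Chgb, a granin of secretory vesicles, had 0.21 ± 0.10 in saline and 0.36 ± 0.10 in ethanol mice, while Nts, neurotensin, had 0.74 ± 0.13 and 0.03 ± 0.13. All 13 genes encoded by the mitochondrial genome had negative averaged differences, as did 7478 of all 14947 genes. The median of the 13 was -0.19, with -0.24 in saline and -0.14 in ethanol mice, and 3 were lower at an unadjusted p under 0.05 (3.82% of all genes). That number was 6 without standard saline replicate 1 and 1 without enriched saline replicate 1, standard ethanol replicate 1 or enriched ethanol replicate 3. The 80 ribosomal protein genes and 72 nuclear genes of the respiratory chain had 0 at that level in either direction (7.96% of all genes).

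**Figure D5:**
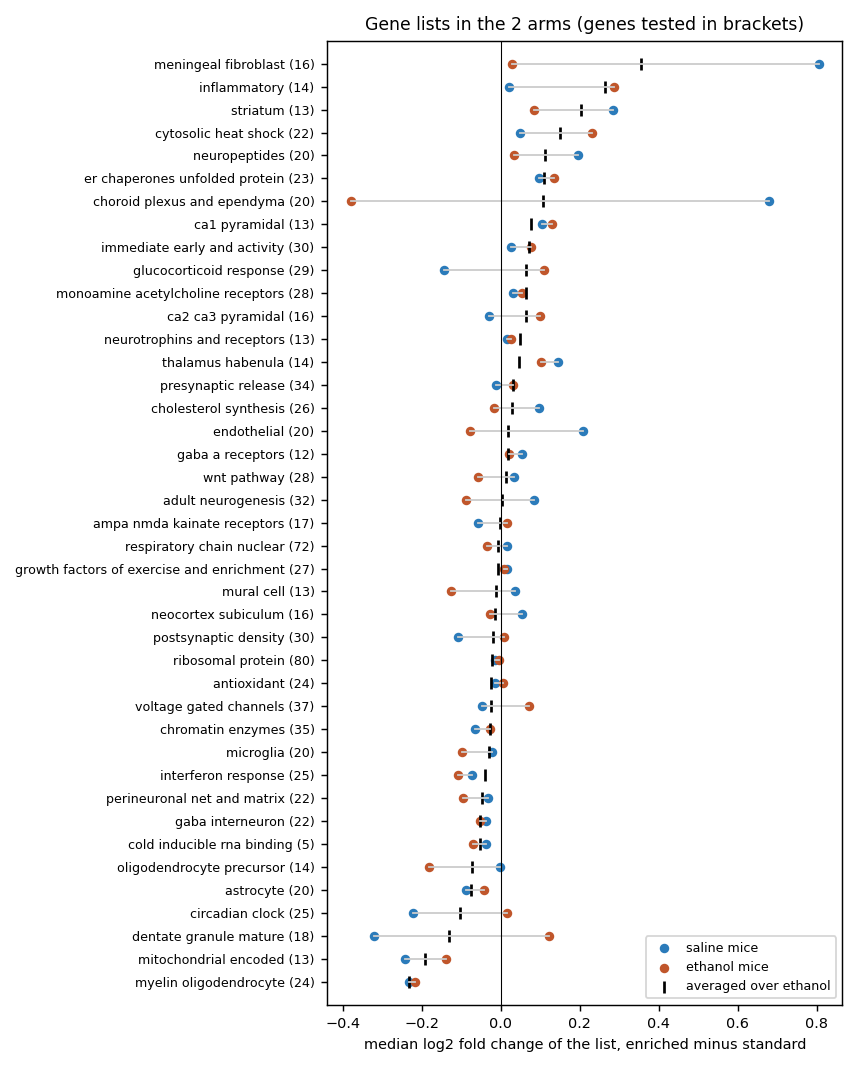
Median log2 fold change of each gene list in saline mice, in ethanol mice and averaged over ethanol, with the number of genes tested in brackets. Myelin, mitochondrially encoded and endoplasmic reticulum chaperone genes have medians of the same sign in both arms, while those of choroid plexus, dentate granule and clock genes differ in sign.

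Of 21 genes often followed in work on enrichment, 0 passed the adjusted threshold and 5 had an unadjusted p under 0.05 (Rbm3, Gfap, Vgf, Mbp and Bdnf). That is 23.8% of them, against 7.96% of all genes in either direction, and Rbm3 is the gene of small p described above. Lists here were chosen with earlier results of these data known, so this share is a description only. Bdnf, the brain-derived neurotrophic factor, was at 23.1, 26.3 and 24.2 TPM in standard saline and 31.2, 30.3 and 23.4 TPM in enriched saline. Ethanol mice had 25.4, 27.2 and 21.6 TPM and then 25.4, 28.5 and 34.0 TPM. The groups overlapped in both arms, and the averaged log2 difference was 0.22 ± 0.10 (adjusted p = 0.617). Vgf, a neuropeptide precursor induced by activity, had 0.30 ± 0.11 in saline and 0.20 ± 0.11 in ethanol mice. Gfap, the intermediate filament of astrocytes, had -0.48 ± 0.09 in saline and 0.03 ± 0.09 in ethanol mice (unadjusted p of the difference between arms 0.0019).

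Of 30 activity-induced genes, 2 were higher and 1 lower at an unadjusted p under 0.05 (4.14% and 3.82% of all genes). In both arms 0 of the 30 differed the same way (0.241% of all genes higher and 0.187% lower). Fos had an averaged log2 difference of 0.28 ± 0.42, Arc 0.15 ± 0.28 and Npas4 0.30 ± 0.29, and standard saline replicate 2 had the lowest value of each (5.13, 54.4 and 1.77 TPM). Without that library the difference was -0.14 for Fos and -0.08 for Arc. Of 32 genes of adult neurogenesis, 1 was higher and 2 lower at an unadjusted p under 0.05 (4.14% and 3.82% of all genes). Dcx, the doublecortin of immature neurons, had 0.44 ± 0.14 in saline and -0.10 ± 0.14 in ethanol mice. Mki67, a marker of dividing cells, had an averaged log2 difference of -0.22 ± 0.21 at levels between 0.708 and 2.72 TPM.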

How the data were processed

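Total RNA of 12 mouse hippocampi was sequenced after ribosomal RNA depletion, per the labels' protocols. The submitters' processing notes name CASAVA, kallisto, sleuth and the build mm10; their roles and the annotation were not given in the sources used here. Values deposited by the authors as TPM are a signal whose columns sum to between 973187 and 1024536, so they are TPM rescaled per library; the design had assumed plain TPM, and the test is the same for both. Depth is unknown, so no counting interval is given. All 12 columns were used and 0 were left over.

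Values were taken as log2(TPM + 0.5) for genes with a mean of at least 1. limma 3.58.1 in R 4.3.3 fitted 4 group means to 12 libraries with a mean-variance trend (8 residual and 3.82 prior degrees of freedom). Contrasts were enrichment averaged over ethanol, enrichment in each arm, and their difference; tests were two-sided, adjusted by Benjamini-Hochberg, at 0.05. The fit was tested on simulated data. Symbols and positions come from GENCODE M21, promoters from RefSeq.

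Genes were named by these rules: the 12 smallest averaged p per direction with the same sign in both arms, up to 15 per direction that differed in each arm, 21 genes fixed for their place in enrichment work, and up to 4 members of each list described, leaving out predicted genes in the first rule. Some genes these rules name are not reported here. Other genes given were chosen after their values were seen. The members and lists were chosen with earlier results of these data known. Alternatives covered the pseudocount, the low-value filter, scaling, array weights, the trend, an additive model, protein-coding genes only, each arm alone, a block on the replicate number and each library left out.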

Additional observations from a re-analysis of the deposited data

Results flagged for a closer look

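The pseudogene Gm44922 differed between arms by 4.16 on the log2 scale. It was at 8.47, 8.41 and 8.35 TPM in standard saline and listed at 0 in the other 9 libraries, so its effect of -4.16 belongs to saline mice. The gene without a symbol, ENSMUSG00000118641, differed between arms by -3.79. It was at 10.4, 5.69 and 4.41 TPM in standard ethanol and listed at 0 elsewhere. Both genes met the minimum mean of 1 TPM only through the 1 group where they were above 0, so a difference was built into their being tested and the values are a description, although limma's adjusted p was under the threshold. A listed 0 can also be a failed estimate. Neither difference passed with a pseudocount of 0.1.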

How the results depend on the processing

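The number of genes that passed for the averaged effect was 3, and it was 0 with a minimum mean of 5, 6 with no filter, 1 in an additive model, 0 among protein-coding genes, and 1 to 11 with 1 library left out. It was 9 without both standard saline replicate 2 and enriched saline replicate 2, an alternative chosen after seeing the data. The highest leave-one-out count was without enriched ethanol replicate 3, where Hspa1a, Icam1, Ch25h and Cxcl1 passed, and next came 10 without standard saline replicate 2, where Dbp and Speer4b passed. For saline mice the count of 4 was 1 with a pseudocount of 1, 1 with a minimum mean of 5, 7 with no filter, 2 after quantile normalization, 2 with array weights and 1 to 20 with 1 library left out, the highest without standard saline replicate 2. For ethanol mice the count of 1 was 0 with a pseudocount of 0.1, 0 with a minimum mean of 5, 2 with no filter, 3 when that arm was fitted alone and 0 to 21 with 1 library left out, the highest without enriched ethanol replicate 3. For the difference between arms the count of 2 was 0 with a pseudocount of 0.1, 0 with a minimum mean of 5, 4 with no filter, 1 after quantile normalization and 1 to 12 with 1 library left out, the highest without enriched ethanol replicate 3. The 64 genes that differed the same way were 110 with no filter and 46 to 93 with 1 library left out. Fewer genes are tested under the stricter filters; otherwise the cause was not tested.

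For the named genes, 1481 of 1513 values under alternatives kept their direction. The other 32 belonged to 10 genes, none of which passed in any fit. With 1 library left out the averaged log2 difference ran from -0.073 to 0.037 for Igf1, -0.14 to 0.52 for Fos, -0.083 to 0.32 for Arc, -0.058 to 0.30 for Nr4a1, -0.13 to 0.047 for Fkbp5, -0.021 to 0.049 for Nr3c1, -0.19 to 0.13 for Egr1 and -1.22 to 0.90 for Ttr. Without both replicate 2 libraries of the saline arm it was 0.029 for Igf1, -0.024 for Fos, -0.017 for Arc, -0.0012 for Vegfa, 0.032 for Fkbp5, -0.093 for Egr1, -0.012 for Igf2 and -1.23 for Ttr, and with array weights it was -0.040 for Egr1. The replicate numbers were not treated as pairs. Correlations within an arm ran from -0.049 to 0.058 for same-numbered libraries and from -0.087 to 0.054 for differently numbered ones. With 3 libraries per group these values cannot show whether the samples were paired. With the number as a block, 2 genes passed for the averaged effect, 3 for saline, 1 for ethanol and 2 for the difference, and 64 differed the same way, of which 52 were shared with the fit without the block. ENSMUSG00000118641 no longer passed under the block (adjusted p = 0.13). Depth is unknown, so its limits on low genes could not be given.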

Other observations

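Some genes differed in opposite directions in the 2 arms, each at an unadjusted p under 0.05 and none past the adjusted threshold for the difference between arms. Map7 was at 84.3, 73.5 and 84.1 TPM in standard saline and 60.5, 62.7 and 63.2 TPM in enriched saline, but at 64.3, 64.2 and 59.4 TPM and then 73.7, 79.3 and 77.6 TPM in ethanol mice. Enriched saline thus overlapped standard ethanol, and standard saline overlapped enriched ethanol. Adcyap1 had the reverse pattern, with 8.53, 7.78 and 8.19 TPM and then 10.3, 10.01 and 13.8 TPM in saline mice, against 9.97, 10.3 and 9.47 TPM and then 7.35, 7.17 and 7.09 TPM in ethanol mice. Col3a1, a fibrillar collagen of meninges and vessels, had a log2 difference of 0.93 ± 0.31 in saline and -0.95 ± 0.31 in ethanol mice. Its level was 1.42 to 2.63 TPM in standard saline and 4.40 to 8.87 TPM in standard ethanol.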
